A study of Homo sapiens with 10 samples.

Results

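The comparison described here set 2 arrays of 786-O cells carrying a short hairpin RNA against p65 (replicates 1 and 2) against 2 arrays of 786-O cells carrying a control shRNA. These are 4 of the 10 arrays of the series, taken by their titles, and every gene that could be named was examined. 786-O is a human clear-cell kidney cancer line that lacks a working VHL tumour suppressor. All 4 samples had been infected with lentivirus, which carried the hairpin, and selected in puromycin at 2 ug/ml, controls included. The other 6 arrays compare hairpins against ZHX2, a homeobox transcription factor, with a scrambled hairpin, and were hybridised and tabulated separately. The titles number the p65 arrays 1 and 2, as they do the controls, which was read here as replicates of a single hairpin. The titles do not settle this, and the hairpin sequence is not given in the sources used here. Effects of a hairpin on other transcripts and effects of losing p65 therefore cannot be told apart. The labels do not say whether the 2 replicates of a group came from separate infections or cultures, and the p-values reflect the spread between these arrays alone, which may be technical.

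p65, the product of RELA, is the main transactivating member of the NF-kB family of transcription factors. It is held in the cytoplasm by inhibitors such as IkB-alpha, and once these are degraded the p65-p50 dimer enters the nucleus and binds kB sites near genes for chemokines, cytokines, adhesion molecules and its own inhibitors. NF-kB activity is known to be raised in clear-cell renal carcinoma cells without VHL.

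RELA itself had log2 signals of 7.64 and 7.67 in the control arrays and of 5.04 and 5.28 in the p65 arrays. The groups did not overlap, and the fall was 2.50 on the log2 scale (SE 0.150, n = 2 and 2, limma adjusted p = 0.00132), a 5.65-fold lower signal. RELA passed the test in each of the 4 fits that left out 1 array. Signals are relative and come from bulk RNA, in which fewer cells holding a transcript and less transcript per cell cannot be told apart. Of 8 renal carcinoma markers 0 passed, with a median difference of -0.11, and 3 were lower and 2 higher without overlap between the groups (22.7% and 23.4% of all genes). The kidney transcription factor PAX8 had 9.14, 9.04, 9.08 and 9.15 on the 2 control and 2 p65 arrays. The 3 lower markers were vimentin (VIM) with 9.34, 9.36, 9.06 and 9.16, PAX2 and KRT18. PAX2 had 5.16, 5.35, 4.70 and 4.90, and the keratin KRT18, near the dim reference, 2.24, 2.50, 2.11 and 2.05. The 2 higher markers, CDH6 and NNMT, differed by 0.52 and 0.34 (limma adjusted p = 0.355 and 0.268). The keratin KRT8 differed by -0.70 but overlapped between the groups (adjusted p = 0.467). Of 18 leukocyte, 12 endothelial and 8 fibroblast markers, 10, 10 and 4 lay below the reference for dim genes given further on. Of all 22432 named genes 8951 lay below it. No marker of these lists passed the test, beside 3.86% of all genes.

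In all, 866 of 22432 named genes passed an adjusted p of 0.05 (3.86%). Of these, 559 fell (2.49% of the genes tested) and 307 rose (1.37%), so that 64.5% of the calls were falls. A change of at least 2-fold was seen in 330 of the falls and 121 of the rises, and one of at least 4-fold in 29 and 12. The median difference over all genes was 0.00686 on the log2 scale. These calls come from a limma fit in which the expected variance follows the signal level. That fit was chosen in the knowledge that limma with a single variance prior calls 0 genes, with 3216 at an unadjusted p under 0.05 and a smallest adjusted p of 0.0733. With all 53617 probe sets entered in place of 1 per gene, the fit with the trend also called 0 (5782 at an unadjusted p under 0.05, smallest adjusted p 0.0724). Words such as rose, fell and passed refer below to the fit over the named genes with the trend.

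The number of calls also changed with the arrays entered, and was lowest without p65 replicate 1. A fit without 1 array takes the spread from 1 pair of replicates in place of 2. Lost precision and the weight of the array left out therefore cannot be told apart. All 866 genes kept their direction in each of these fits. Without it 11 genes passed (0.0490%), 9 lower (0.0401%) and 2 higher (0.00892%). Without p65 replicate 2 it was 185, and without control replicate 1 or 2 it was 1046 or 1006. The 11 genes were CCL2, ZNF724, VCAM1, HMMR, IL10RB, RELA, FOXM1, KIF23 and ANLN, which were lower, and SYT11 and GDF15, which were higher. Of the 108 called genes named here by rule, 10 still passed without p65 replicate 1 and 36 without p65 replicate 2, against 98 and 96 without control replicates 1 and 2, and none changed direction. Values by array are given for the genes described most closely, and differences alone for the others.

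Many probe sets of this table are dim, which bears on every count. The 356 olfactory receptor genes were taken as a family likely to be little expressed in these cells, though 2 of them passed the test. Their median signal was 1.06 and their 95th percentile 2.10, which served as the reference for a dim gene. Of all named genes 13481 (60.1%) had a mean signal at or above 2.10, and among these 6.32% passed the test. Of the 8951 dimmer genes 14 passed, 8 lower and 6 higher. The spread between replicates depended on the signal. With the genes ranked by mean signal and split into 10 equal groups, the SD within groups of arrays was 0.23 for the dimmest group, 0.386 for the middle one (the fifth) and 0.151 for the brightest. The share of genes called went from 0% in the dimmest group to 1.29% in the sixth, 8.25% in the eighth, 10.7% in the ninth and 14% in the brightest. The share over all genes, given beside the lists below, is therefore a low base for a list of bright genes.

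**Figure D1:**
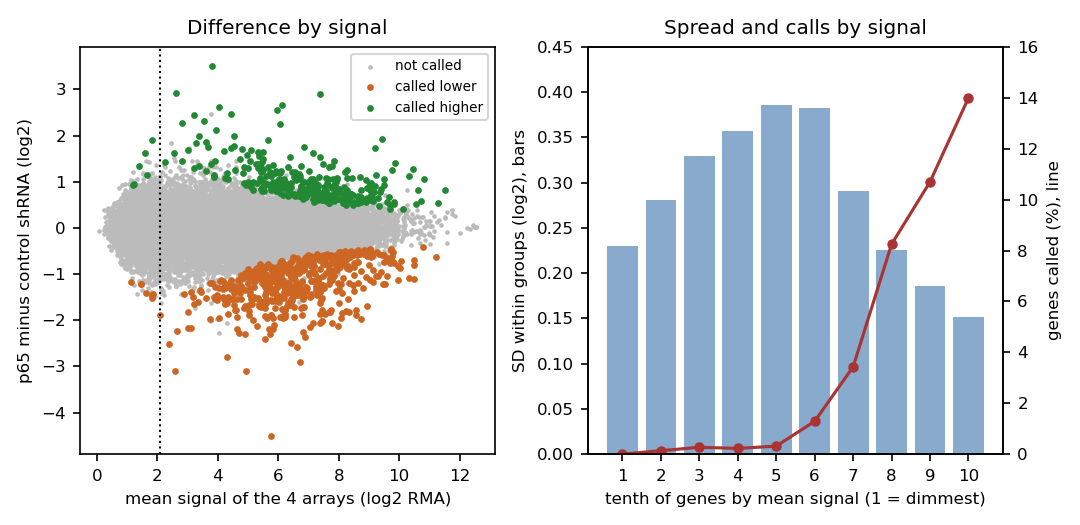
Left, each named gene's log2 difference (p65 minus control shRNA) against its mean log2 signal over the 4 arrays; the dotted line is the olfactory reference of 2.10. Right, bars give the SD within groups and the line the percentage of genes called for 10 equal groups of genes by signal; the SD peaks at 0.386 in the fifth, and 14% of the brightest were called.

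Genes downstream of NF-kB were taken by role, beginning with secreted signals. Of 16 chemokines measured, 3 fell (18.8%, against 2.49% of all genes) and 0 rose, and 7 were dim. The median difference of the list was -0.18, and with 1 array left out it ranged from -0.19 to 0.09, so the list as a whole had no steady direction. CCL2, the monocyte attractant, had signals of 8.38 and 7.65 in the controls and of 2.83 and 4.19 with the p65 hairpin. That was a fall of 4.50 (SE 0.420, adjusted p = 0.00301), or 22.7-fold, and every p65 value lay far below both controls although the p65 arrays had an SD of 0.966. CXCL5, a neutrophil attractant, went from 7.50 and 8.63 to 5.44 and 5.95, a change of -2.37 (SE 0.338, adjusted p = 0.0105). CXCL8, or interleukin-8, went from 5.19 and 5.34 to 4.32 and 4.18 (-1.01, SE 0.199, adjusted p = 0.0346). Without p65 replicate 1 or 2 only CCL2 of these 3 still passed, and CXCL8 passed in none of the 4 fits with 1 array left out. CXCL1 and CXCL2, close relatives of CXCL8, did not pass and had differences of 1.43 (adjusted p = 0.0516) and 0.92 (adjusted p = 0.226), the first at dim signals of 1.21, 0.82, 2.78 and 2.11. CX3CL1 and CXCL12 overlapped between groups and had differences of 0.45 and -0.60 (adjusted p = 0.444 and 0.588).

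Of 23 cytokines and acute-phase proteins, 3 fell and 0 rose, with a list median of -0.28 (-0.52 to -0.16 with 1 array left out), and 0 of the 3 passed without p65 replicate 1 or without p65 replicate 2. Beside these 3 falls among 23 genes, the share of all genes that fell was 2.49%. IL6 had 4.31 and 5.03 in the controls and 3.12 in both p65 arrays (-1.55, SE 0.298, adjusted p = 0.0312). PTX3, the soluble pattern receptor pentraxin 3, went from 3.91 and 3.95 to 1.95 and 2.27, the lower of which is within the dim range (-1.82, SE 0.288, adjusted p = 0.0152). TNFSF10, which encodes the death ligand TRAIL, went from 10.81 and 11.01 to 10.00 and 10.20 (-0.81, SE 0.108, adjusted p = 0.00778). Neither group overlapped the other in these 3 genes. TNFAIP6, at 5.55 and 4.41 against 2.49 and 3.51, differed by -1.98 but missed the threshold (adjusted p = 0.0567), and TNF differed by -1.04 (adjusted p = 0.172). The bright members TGFB1, TGFB2 and LIF had differences of -0.37, -0.03 and 0.44 and did not pass.

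Of 12 adhesion molecules 2 fell (16.7%, against 2.49% of all genes). The list median of -0.30 ranged from -0.34 to -0.18 with 1 array left out. VCAM1, the receptor for leukocyte integrins, had 8.24 and 8.11 against 5.24 and 5.29, a fall of 2.91 (SE 0.134) or 7.53-fold, with the smallest adjusted p of any gene (6.05e-04). VCAM1 passed in every fit with 1 array left out. CD44, the hyaluronan receptor, went from 6.31 and 6.32 to 5.11 and 5.23 (-1.14, SE 0.158, adjusted p = 0.00929), but passed neither without p65 replicate 1 nor without p65 replicate 2, and its other probe set, with a dim mean of 1.81, differed by 0.02. ICAM1, another integrin ligand, had 8.94 and 8.73 against 8.38 and 8.34. It did not overlap between groups and differed by -0.48, but missed the threshold (adjusted p = 0.0647), which it passed without control replicate 2, with the dim genes left out and with the replicate block. ALCAM and NCAM1 had differences of 0.17 (adjusted p = 0.647) and -0.69 (adjusted p = 0.114).

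Among the 10 NF-kB subunits and IkB family members other than RELA, 1 passed (10.0%, against 3.86% of all genes). The median signals of the list lay in the eighth and ninth groups by signal, of which 8.25% and 10.7% passed. The count therefore shows nothing about the list. The list median of -0.20 ranged from -0.28 to -0.16 with 1 array left out. NFKBIA, which encodes IkB-alpha, went from 7.56 and 7.42 to 6.51 and 6.52 (-0.97, SE 0.128, adjusted p = 0.00757). NFKB1, the p105 precursor of p50, differed by -0.60 (adjusted p = 0.0647), and passed under the same 3 settings as ICAM1, while NFKB2, the precursor of p52, differed by -0.65 (adjusted p = 0.104). RELB and REL had differences of -0.13 and -0.21, with adjusted p of 0.874 and 0.512. NFKBIZ, an atypical nuclear IkB, was the member with the highest difference, 0.47 (7.53 and 7.44 against 7.82 and 8.08, adjusted p = 0.11). Of 13 feedback and survival genes 2 fell (15.4%, against 2.49% of all genes), with a list median of -0.13 (-0.28 to -0.08). TNFAIP3, the ubiquitin-editing brake A20, went from 6.21 and 5.78 to 4.31 and 4.66 (-1.51, SE 0.222, adjusted p = 0.0118). TNIP1, an A20-binding partner, went from 7.61 and 7.53 to 7.04 and 6.97 (-0.57, SE 0.122, adjusted p = 0.0449). CYLD and OTUD7B, deubiquitinases that also restrain the pathway, and TNFAIP2 had differences of 0.44, 0.51 and 0.40 and did not pass. Of 23 kinases, adaptors and receptors upstream 8.70% passed, against 3.86% of all genes. In the eighth group by signal, where the median signals of this list lay, 8.25% passed, so the count shows nothing about the list. IKBKE, an IKK-related kinase, fell (5.42 and 5.35 to 4.34 and 4.46, adjusted p = 0.0316). RIPK2, the NOD receptor kinase, rose (7.99 and 7.79 to 8.67 and 8.49, adjusted p = 0.0241). NFKBIA, TNFAIP3, TNIP1, IKBKE and RIPK2 all missed the threshold without p65 replicate 1 and without p65 replicate 2, IKBKE also without either control array and TNIP1 without 1 of them.

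**Figure D2:**
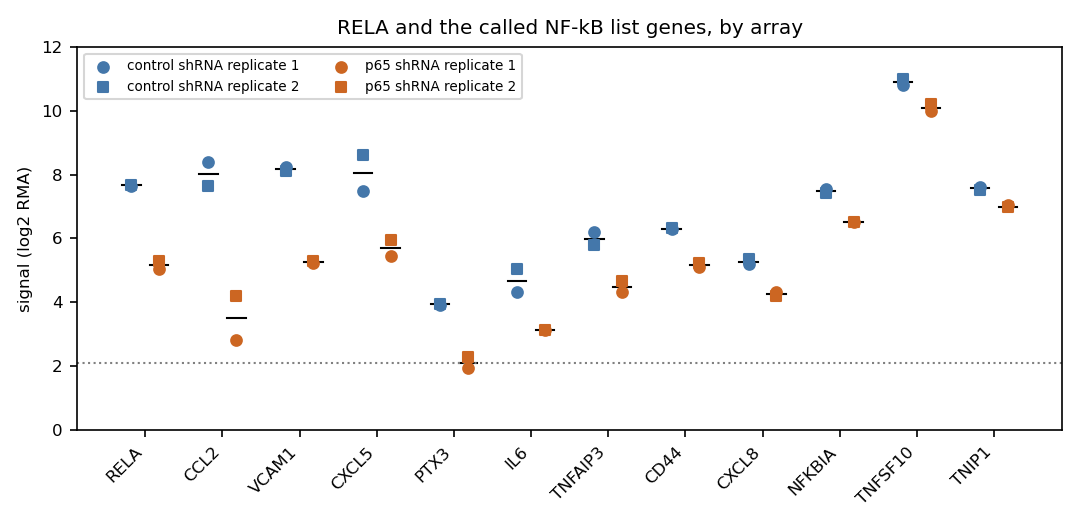
Log2 RMA signal on each of the 4 arrays for RELA and the 11 called members of the lists of NF-kB subunits, feedback genes, chemokines, cytokines and adhesion molecules; blue is control shRNA, orange p65 shRNA, circles replicate 1, squares replicate 2, bars the mean of 2, and the dotted line the dim reference of 2.10. Both p65 arrays lie below both controls for every gene shown, from 22.7-fold for CCL2 to 1.48-fold for TNIP1.

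The 11 called members of these 5 lists were set against RefSeq promoters, read from 250 bases before to 50 bases after the annotated start on GRCh38.p14. Of the 11 genes, 10 had an entry. The NF-kB kB consensus, searched on both strands, was found in 6 of the 10 (60.0%), against 10.8% of all 27305 promoters of the table and 17.8% of the promoters of all genes that fell. It was found in VCAM1, CXCL5, PTX3, IL6, TNFAIP3 and NFKBIA, and not in this window of CD44, CXCL8, TNFSF10 and TNIP1. The members were few and were chosen by their fall, from lists drawn up around NF-kB from general knowledge. Members of these lists that did not pass were not scored, so the share cannot be tied to the fall. A match is a description of letters, not of binding. The promoters of the 5 largest falls with an entry are shown, 5′ to 3′ on the gene's strand, with the matching letters in capitals.
VCAM1, chr1:100719492-100719791, plus strand: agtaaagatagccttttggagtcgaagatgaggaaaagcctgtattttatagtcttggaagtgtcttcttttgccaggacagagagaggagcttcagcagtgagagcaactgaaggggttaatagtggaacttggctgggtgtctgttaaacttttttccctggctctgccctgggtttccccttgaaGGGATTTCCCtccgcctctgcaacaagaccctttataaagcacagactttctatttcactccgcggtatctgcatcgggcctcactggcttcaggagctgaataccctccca
CXCL5, chr4:73998628-73998927, minus strand: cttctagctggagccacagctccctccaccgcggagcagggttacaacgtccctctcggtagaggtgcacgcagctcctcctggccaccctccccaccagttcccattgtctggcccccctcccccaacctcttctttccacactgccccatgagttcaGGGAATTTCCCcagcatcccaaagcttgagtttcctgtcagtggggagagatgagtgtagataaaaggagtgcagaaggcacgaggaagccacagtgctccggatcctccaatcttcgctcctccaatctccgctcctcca
PTX3, chr3:157436600-157436899, plus strand: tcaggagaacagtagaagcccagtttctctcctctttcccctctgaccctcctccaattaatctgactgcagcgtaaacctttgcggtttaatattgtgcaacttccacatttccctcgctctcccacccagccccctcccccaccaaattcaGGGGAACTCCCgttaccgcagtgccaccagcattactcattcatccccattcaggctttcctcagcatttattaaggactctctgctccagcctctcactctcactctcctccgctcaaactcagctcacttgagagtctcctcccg
IL6, chr7:22726950-22727249, plus strand: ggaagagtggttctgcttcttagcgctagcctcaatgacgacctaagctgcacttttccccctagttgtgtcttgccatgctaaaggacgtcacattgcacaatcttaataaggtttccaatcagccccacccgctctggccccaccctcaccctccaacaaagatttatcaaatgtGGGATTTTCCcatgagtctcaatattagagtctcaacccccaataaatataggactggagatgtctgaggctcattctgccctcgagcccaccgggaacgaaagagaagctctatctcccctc
TNFAIP3, chr6:137867009-137867308, plus strand: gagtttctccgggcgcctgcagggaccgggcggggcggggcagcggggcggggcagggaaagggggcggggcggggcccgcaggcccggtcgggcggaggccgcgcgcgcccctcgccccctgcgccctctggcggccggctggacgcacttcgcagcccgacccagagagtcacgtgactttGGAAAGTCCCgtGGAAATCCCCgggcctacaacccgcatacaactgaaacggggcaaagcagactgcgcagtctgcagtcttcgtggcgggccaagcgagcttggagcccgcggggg
The first base of the match lay 62 bases before the start in VCAM1, 73 in IL6, and 67 and 55 for the pair in TNFAIP3. In CXCL5 and PTX3 a run of capitals holds overlapping matches, which begin 91 and 90 bases before the start in CXCL5 and 97 and 96 in PTX3.

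The 2 cell-cycle lists had the lowest medians of the 57 lists. Of 28 mitosis genes 26 fell and 0 rose, against 2.49% falls among all genes. Of 29 genes of the G1/S transition and DNA replication 23 fell and 0 rose. No gene of either list was dim, and of all genes that were not dim 6.32% passed in either direction. The median difference was -1.64 for the mitosis list and -1.23 for the replication list, beside 0.01 for all genes. The median signal of the mitosis list was 7.47 and 7.89 in the controls and 5.93 and 6.25 in the p65 arrays, and that of the replication list 6.52 and 6.87 against 5.50 and 5.53. Both lists were lower in each p65 array than in each control, and control replicate 2 was the higher control for both. Leaving out 1 array kept the medians between -1.83 and -1.51 for mitosis and between -1.45 and -0.98 for replication. The number of members passing was not as steady. Without p65 replicate 1 it was 2 for mitosis (FOXM1 and KIF23) and 0 for replication, and without p65 replicate 2 it was 18 and 10.

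Among the mitosis genes, FOXM1, a transcription factor that drives the mitotic programme, had 8.0 and 8.23 in the controls and 5.92 and 6.03 in the p65 arrays (-2.14, SE 0.138, adjusted p = 0.00132). KIF23, a kinesin of the central spindle, went from 8.59 and 8.64 to 6.72 and 6.88 (-1.82, SE 0.119, adjusted p = 0.00132). PLK1, the polo-like mitotic kinase, went from 9.52 and 9.96 to 7.65 and 7.88 (-1.97, SE 0.159, adjusted p = 0.00238), and TPX2, a spindle assembly factor, from 9.67 and 9.92 to 7.99 and 8.21 (-1.70, SE 0.128, adjusted p = 0.00238). The proliferation marker MKI67 went from 8.83 and 9.24 to 6.53 and 7.29 (-2.13, adjusted p = 0.00457). In none of these did the groups overlap. BUB1 and CDC25C were the members that did not pass, with differences of -1.11 (adjusted p = 0.0507) and -1.18 (adjusted p = 0.0637). Outside the list, the spindle proteins HMMR (7.73 and 8.07 to 5.22 and 5.44) and DLGAP5 (6.77 and 7.08 to 4.46 and 5.0) were among the 15 largest falls of all genes, by 2.57 and 2.20. ANLN, which encodes the cytokinesis scaffold anillin and was singled out after its values were seen, went from 9.44 and 9.49 to 7.60 and 7.75.

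Among the replication genes, TYMS, which encodes thymidylate synthase, had 9.03 and 9.46 against 7.34 and 7.48 (-1.83, SE 0.153, adjusted p = 0.00238). MCM5, a subunit of the replicative helicase, went from 7.02 and 7.17 to 5.23 and 5.42 (-1.77, SE 0.154, adjusted p = 0.00238), and MCM10, a replication initiation factor, from 6.78 and 7.24 to 5.38 and 5.13 (-1.75, SE 0.195, adjusted p = 0.00437). All of MCM2 to MCM7 passed, with differences between -0.92 (MCM2) and -1.77 (MCM5). GINS1, a subunit of the same helicase complex, went from 6.63 and 6.87 to 5.34 and 5.08 (-1.54, SE 0.173, adjusted p = 0.00444). The 6 members that did not pass were E2F1, E2F2, CCNE1, GINS3, POLE2 and RFC4. Of these CCNE1, or cyclin E1, had the highest difference, 0.43 (6.04 and 5.89 against 6.57 and 6.21), while its relative CCNE2 fell by 1.05. Of 13 histone genes measured 4 fell, namely H2BC14 (-2.06), H1-5 (-1.87), H1-4 (-1.13) and H1-2 (-0.88), and 0 passed without p65 replicate 1 (2 without p65 replicate 2). The share of the histone list that fell was 30.8%, against 2.49% of all genes. Replication-dependent histone genes are close copies of each other, and how far their probes separate them was not tested.

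Among 16 cyclin D, CDK inhibitor and pocket-protein genes, RBL1, which encodes the RB relative p107, fell from 6.95 and 7.42 to 6.02 and 5.73 (-1.31, adjusted p = 0.0121). CDKN1A, the CDK inhibitor p21, rose from 5.56 and 5.76 to 6.42 and 6.62 (0.86, SE 0.161, adjusted p = 0.0286). Neither passed without p65 replicate 1 or without p65 replicate 2. No apoptosis regulator of the 21 measured passed, which beside 3.86% of all genes shows nothing about that list.

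**Figure D3:**
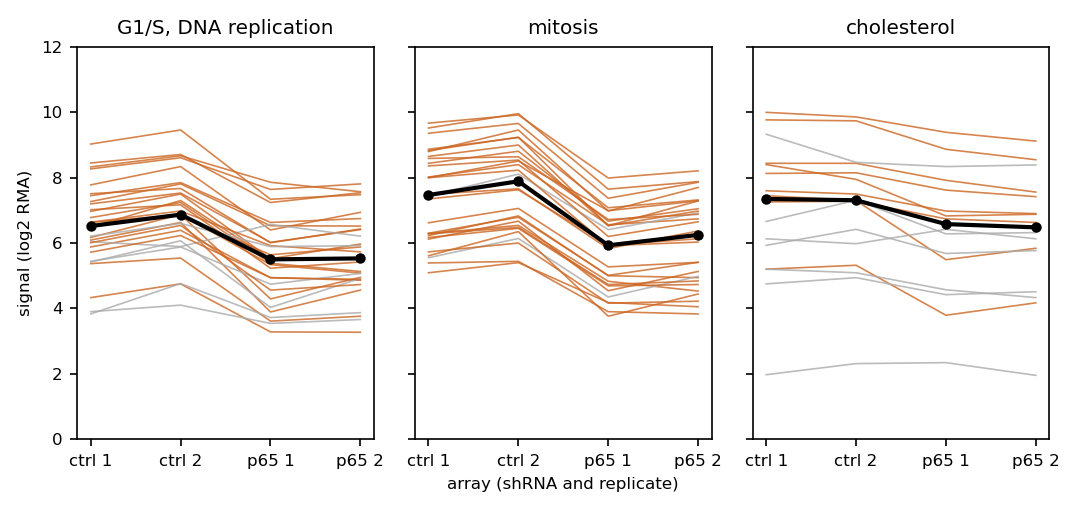
Log2 RMA signal of each member of the G1/S and DNA replication, mitosis and cholesterol lists on the 4 arrays; orange lines are members that fell, grey lines members that did not pass, and the black line the list median. The median steps down between control replicate 2 and p65 replicate 1 in each panel, from 6.87 to 5.50, from 7.89 to 5.93 and from 7.31 to 6.58.

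Promoters were also read for the cell-cycle genes, to show what the falling members of each list share in sequence. The CHR element, TTTGAA, was searched on both strands in the same window and found in 14 of the 20 mitosis genes that fell and had an entry (70.0%), in 1 of the 19 such replication genes (5.26%) and in 15.4% of all promoters. The CCAAT box, searched as the letters CCAAT on both strands, was found in 80.0% and 73.7% of these lists and in 35.7% of all promoters. It was also found in all 8 cholesterol genes that fell and had an entry, so it was not particular to the cell-cycle lists. An E2F motif, TTTCCCGC or TTTGGCGC on either strand, was found in 12 of the 19 replication genes (63.2%), in 1 of the 20 mitosis genes and in 2.31% of all promoters. The kB consensus was found in 0 of the 20 mitosis promoters and in 6 of the 19 replication promoters (31.6%). Over all genes that fell, CHR, CCAAT and E2F letters were found in 24.0%, 49.1% and 10.3% of promoters, and over all that rose in 9.17%, 37.1% and 3.49%. Over the tested genes with an entry the shares were 12.6%, 35.9% and 2.93%, and 12.3% for the kB consensus. These shares are descriptions without a test. List members that did not fall were not scored, so the shares of a list cannot be tied to its fall. As examples chosen after their values were seen, the promoters of KIF23 and PLK1 are shown with the CHR and CCAAT letters in capitals, and those of TYMS and GINS1 with the E2F letters in capitals.
KIF23, chr15:69414099-69414398, plus strand: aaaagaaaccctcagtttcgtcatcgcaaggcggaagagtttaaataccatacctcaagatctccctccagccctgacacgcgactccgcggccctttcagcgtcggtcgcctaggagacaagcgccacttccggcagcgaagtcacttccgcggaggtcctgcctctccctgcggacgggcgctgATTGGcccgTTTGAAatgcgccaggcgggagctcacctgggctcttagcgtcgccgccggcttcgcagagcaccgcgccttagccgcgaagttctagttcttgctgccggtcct
PLK1, chr16:23678639-23678938, plus strand: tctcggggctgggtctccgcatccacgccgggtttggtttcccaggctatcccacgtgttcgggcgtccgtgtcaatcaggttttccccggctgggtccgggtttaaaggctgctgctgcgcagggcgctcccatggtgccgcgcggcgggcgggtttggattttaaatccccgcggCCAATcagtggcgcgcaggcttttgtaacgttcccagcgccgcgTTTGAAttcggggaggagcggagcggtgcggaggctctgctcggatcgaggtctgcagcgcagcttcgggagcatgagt
TYMS, chr18:657403-657702, plus strand: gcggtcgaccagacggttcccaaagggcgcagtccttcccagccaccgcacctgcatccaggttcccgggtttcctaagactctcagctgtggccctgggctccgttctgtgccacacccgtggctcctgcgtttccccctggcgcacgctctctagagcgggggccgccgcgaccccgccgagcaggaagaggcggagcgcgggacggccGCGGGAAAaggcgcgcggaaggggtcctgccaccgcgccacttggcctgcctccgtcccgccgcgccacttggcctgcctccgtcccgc
GINS1, chr20:25407423-25407722, plus strand: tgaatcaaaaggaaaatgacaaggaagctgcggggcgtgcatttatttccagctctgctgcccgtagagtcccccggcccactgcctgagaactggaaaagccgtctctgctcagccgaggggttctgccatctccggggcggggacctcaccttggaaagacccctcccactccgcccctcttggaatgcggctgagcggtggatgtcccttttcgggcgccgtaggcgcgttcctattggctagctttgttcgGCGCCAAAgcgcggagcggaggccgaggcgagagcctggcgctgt
In KIF23 the CHR begins 55 and the CCAAT box, here as ATTGG on the printed strand, 64 bases before the start. In PLK1 they begin 29 and 73 bases before it. The E2F letters of TYMS begin 39 bases before the start and those of GINS1 6 bases after it, both read on the printed strand as the reverse complement.

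Among genes of lipid synthesis, 9 of 16 cholesterol genes fell (56.2%, against 2.49% of all genes) and 0 rose. The median difference of -0.65 stayed between -0.69 and -0.55 with 1 array left out. The median signal of the list was 7.35 and 7.31 in the controls and 6.58 and 6.48 in the p65 arrays. LSS, or lanosterol synthase, had 7.45 and 7.30 against 5.49 and 5.84 (-1.71, SE 0.165, adjusted p = 0.00306). HMGCS1, which makes the precursor of mevalonate, went from 8.40 and 7.95 to 6.83 and 6.88 (-1.31, SE 0.161, adjusted p = 0.00592), FDPS, or farnesyl diphosphate synthase, from 5.20 and 5.32 to 3.79 and 4.17 (-1.29, SE 0.222, adjusted p = 0.0214), and MSMO1, a sterol demethylase, from 9.77 and 9.74 to 8.87 and 8.55 (-1.04, SE 0.123, adjusted p = 0.00531). SREBF2, the transcription factor of sterol synthesis, and INSIG1, which retains it in the endoplasmic reticulum, fell by 0.58 and 0.67. Of the cholesterol genes that did not pass, SC5D had the highest difference, 0.22. Of 16 fatty acid genes 4 fell, 1 rose and 11 did not pass, with a list median of -0.27. The share that passed was 31.2%, against 3.86% of all genes. SCD, the stearoyl-CoA desaturase, had 11.03 in both controls and 9.85 and 9.99 in the p65 arrays (-1.11, SE 0.0892, adjusted p = 0.00238), and its other probe set differed by -1.47. ELOVL5, FASN and ACACA, which elongate fatty acids, make palmitate and make malonyl-CoA, fell by 0.82, 0.68 and 0.59. ACLY, which makes cytosolic acetyl-CoA, differed by 0.04 and did not pass. CPT1A, which brings fatty acids into mitochondria for oxidation, rose by 0.97 (adjusted p = 0.045). Without p65 replicate 1, 0 of the 9 cholesterol and 0 of the 4 fatty acid genes passed, and without p65 replicate 2 it was 1 and 1.

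Of 22 genes known as p53 targets, 5 rose, 0 fell and 17 did not pass, against 1.37% rises among all genes. None of the 22 was dim. Their share called was 22.7%, beside 6.32% in either direction for all genes that were not dim. The list median of 0.47 stayed between 0.39 and 0.53 with 1 array left out. GDF15, a secreted stress cytokine, had 5.78 and 6.07 in the controls and 9.19 and 8.48 in the p65 arrays (2.91, SE 0.227, adjusted p = 0.00238), a 7.52-fold rise that was kept in every fit with 1 array left out. TP53INP1 went from 6.16 and 6.05 to 7.24 and 7.12 (1.08, SE 0.138, adjusted p = 0.00663) and ZMAT3 from 7.54 and 7.42 to 8.26 and 8.18 (0.74, SE 0.115, adjusted p = 0.0142). MDM2, the ubiquitin ligase of p53, rose by 0.63 (adjusted p = 0.0398), and CDKN1A is given above. Among the members that did not pass, BAX differed by 0.21, FAS by -0.29, TP53I3 by -0.48, DDB2 by -0.55 and POLH by -0.58. Without p65 replicate 1 only GDF15 of the 5 passed, and without p65 replicate 2 the count was also 1. In the MYC network 3 of 10 genes rose, namely MYC (7.17 and 7.39 to 8.46 and 8.25, adjusted p = 0.00627), the antagonist MXD1 (0.96) and MNT (0.63), but 0 passed without p65 replicate 1 or without p65 replicate 2. The share of the MYC network that rose was 30.0%, against 1.37% of all genes. The ribosome biogenesis and ribosomal protein lists, which MYC is known to drive, had medians of 0.01 and 0.17. In the first 1 of 20 was lower (UTP20, by 0.71), and in the second 0 of 16 were called, against 3.86% of all genes.

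**Figure D4:**
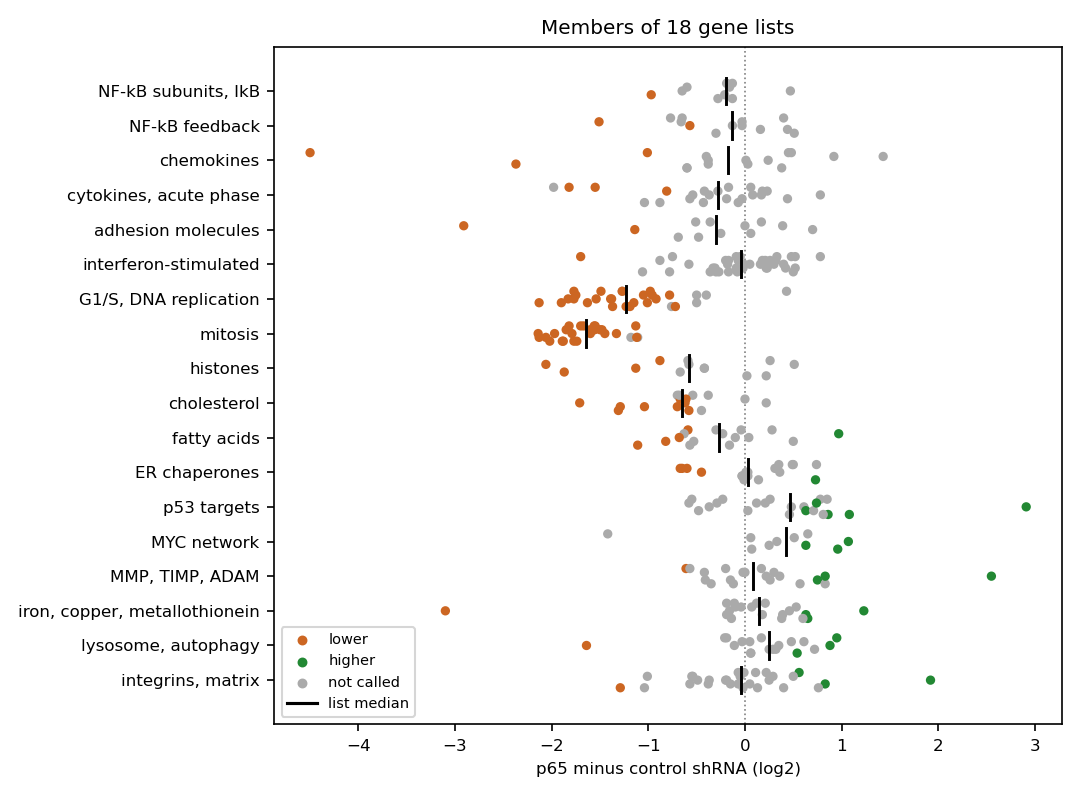
Log2 difference (p65 minus control shRNA) of every measured member of a selection of the gene lists; orange points fell, green points rose, grey points did not pass, and the black bar is the list median. The mitosis and replication lists have medians of -1.64 and -1.23, cholesterol -0.65 and p53 targets 0.47, while the 5 NF-kB lists hold a few large falls around medians between -0.30 and -0.13.

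The remaining genes of the 15 largest falls covered several functions. CP, which encodes the copper-carrying ferroxidase ceruloplasmin, went from 6.72 and 6.22 to 2.71 and 4.02 (-3.10, SE 0.398, adjusted p = 0.00663) but missed the threshold without p65 replicate 1. IL10RB, the shared receptor chain of interleukin-10 and related cytokines, had 6.94 and 6.79 against 4.69 and 4.44, and its fall of 2.29 (SE 0.172, adjusted p = 0.00238) was kept in every fit with 1 array left out. TNFRSF9, the co-stimulatory receptor 4-1BB, went from 8.21 and 7.69 to 5.92 and 5.47 (-2.25, adjusted p = 0.00301), ALOX5AP, which presents arachidonate to 5-lipoxygenase, from 6.42 and 7.07 to 4.31 and 4.39 (-2.40, adjusted p = 0.00301), and LIPG, endothelial lipase, from 5.66 and 6.0 to 3.51 and 3.61 (-2.27, adjusted p = 0.00301). ZNF724, a zinc-finger gene, fell by 2.80 and passed in each of the 4 fits with 1 array left out. The others were LRRC37A3 (-2.20), the butyrophilin BTN3A3 (-2.52) and the long non-coding RNA OLMALINC (-2.24). BTN3A3 had 3.67 and 3.61 in the controls against 1.06 and 1.19, and OLMALINC 3.87 and 3.67 against 1.59 and 1.46. Their p65 signals lay below the dim reference of 2.10, so the sizes of these falls, and with them their places among the largest, rest on low signals. BTN3A3, ZNF724 and LRRC37A3 belong to families of similar genes whose probes may share signal, which was not tested. Except for IL10RB and ZNF724, the genes of this paragraph missed the threshold without p65 replicate 1.

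The 15 largest rises were led by UGT2A3, a glucuronosyltransferase, with 2.83 and 1.25 in the controls and 5.71 and 5.41 in the p65 arrays (3.52, SE 0.471, adjusted p = 0.00795). The lower of the controls was dim, and a second probe set differed by 3.60. SYT11, a synaptotagmin of vesicle traffic, went from 4.75 and 4.85 to 7.64 and 7.31 (2.67, SE 0.168, adjusted p = 0.00132), and passed with any 1 array left out. MMP13, a collagenase, had 4.89 and 4.48 against 7.40 and 7.07 (2.55, SE 0.199, adjusted p = 0.00238). F2RL2, a thrombin receptor cofactor, went from 5.10 and 4.78 to 7.35 and 7.04 (2.25, adjusted p = 0.00238), and CPA4, a carboxypeptidase, from 3.23 and 3.16 to 5.57 and 5.76 (2.46, adjusted p = 0.00238). ITGB3, the integrin beta-3 chain, rose from 8.73 and 8.19 to 10.54 and 10.22 (1.92, SE 0.184, adjusted p = 0.00301). The neural adhesion molecule NRCAM (2.61), the protocadherin PCDHB13 (2.32), RAB39B (2.28), the drug-metabolising CYP3A5 (2.12), the matrix protein HMCN1 (1.99), the protease HABP2 (1.99), the histone demethylase KDM7A (1.9) and the secretory chaperone SCG5 (1.84) completed the set with GDF15. NRCAM, PCDHB13, RAB39B, HMCN1 and SCG5 had at least 1 control near or below the dim reference, so the sizes of their changes rest on low signals. Of these rises only SYT11 and GDF15 passed without p65 replicate 1.

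Of 40 interferon-stimulated genes 1 fell, a share of 2.5% beside 2.49% of all genes, so the count shows nothing about the list. It was OAS3, an oligoadenylate synthetase (6.01 and 6.45 to 4.77 and 4.29, adjusted p = 0.00936). None rose, and the list median was -0.04. None of 15 interferon signalling genes, 20 antigen presentation genes or 11 complement genes passed. In lists this short 0 calls cannot be told from the 3.86% of all genes. Their medians were -0.22, 0.10 and -0.08, and the class I light chain B2M had a difference of 0.53 at an adjusted p of 0.0502. In the cytokine receptor list OSMR, the oncostatin M receptor, fell with IL10RB (8.54 and 8.15 to 7.09 and 7.33, adjusted p = 0.01), and IL6R rose (3.70 and 3.42 to 5.87 and 4.71, adjusted p = 0.0434). Of 11 coagulation genes F3, tissue factor, fell from 5.96 and 6.63 to 4.92 and 4.90 (adjusted p = 0.0191). TDO2, the tryptophan dioxygenase of the kynurenine list, passed the test at 2.26 and 2.44 against 1.09 and 0.78, so that both p65 signals lay below the dim reference and the size of its fall is not given. OAS3, OSMR, IL6R, F3 and TDO2 missed the threshold without p65 replicate 1.

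In the hypoxia-inducible list, 2 of 21 genes fell and 1 rose (14.3% called, against 3.86% of all genes). In the eighth group by signal, where the median signals of this list lay, 8.25% of genes passed. VEGFA, the angiogenic growth factor, went from 6.84 and 7.09 to 6.0 and 5.80 (-1.06, SE 0.159, adjusted p = 0.0126), and EPAS1, which encodes HIF-2 alpha, the factor left stable when VHL is lost, from 8.23 and 8.71 to 7.45 and 7.79 (-0.85, SE 0.182, adjusted p = 0.0445). STC2, a secreted glycoprotein, rose from 7.05 and 7.22 to 8.84 and 8.33 (1.45, adjusted p = 0.00536). The list median was -0.15, and none of 22 glycolysis genes passed. PDGFB and EGFR fell by 1.10 and 0.74 and IGFBP7 rose by 1.03. In the matrix lists FN1, fibronectin, rose from 11.04 and 11.19 to 11.95 and 11.94 (0.83, SE 0.0838, adjusted p = 0.00334), ITGA3 rose by 0.56, and TNC, tenascin C, fell from 7.25 and 6.92 to 5.80 and 5.79 (-1.29, adjusted p = 0.00592), while 0 of 24 collagens passed. TIMP2 and ADAMTS1 rose by 0.83 and 0.75 and ADAM10 fell by 0.61. In the metal and antioxidant lists HMOX1, heme oxygenase 1, MT1X, a metallothionein, and SLC31A1, the copper importer, rose by 1.23, 0.65 and 0.63, and SOD1, the cytosolic superoxide dismutase, fell by 0.74. The lysosomal genes GRN, LAMP1 and CTSD rose by 0.95, 0.88 and 0.54, and the protease CTSS fell by 1.64. Every gene of this paragraph missed the threshold without p65 replicate 1, while without p65 replicate 2 STC2, IGFBP7 and HMOX1 still passed.

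Other lists held 1 to 5 calls each, beside 3.86% of all genes. The share called was 27.8% of 18 endoplasmic reticulum chaperones, 18.8% of 16 YAP targets, 11.1% of 18 renal genes and 9.09% of 11 heat-shock genes. It was 6.67% of 15 circadian, 5.26% of 19 MAPK feedback, 4.76% of 21 TGF-beta and 4.76% of 21 serpin and S100 genes. For 22 AP-1 and EGR and 24 proteasome genes it was 4.55% and 4.17%. The lower shares are near that of all genes and show nothing about those lists. In the list of endoplasmic reticulum chaperones HYOU1 (-0.65), SEL1L (-0.67), CANX (-0.45) and DNAJC3 (-0.60, singled out after its values were seen) fell and HERPUD1 rose (0.73), with a list median of 0.03. The AP-1 subunit FOSL2 rose by 0.74, the MAPK phosphatase DUSP10 by 1.14, the YAP target ANKRD1 by 1.63, the latent TGF-beta binding protein LTBP3 by 0.89 and the potassium channel KCNJ16 by 1.05. The transcription factor TEAD4 fell by 0.84, N-cadherin (CDH2) by 0.57, the circadian activator CLOCK by 0.76, the proteasome subunit PSMB1 by 0.74, the antiprotease SERPINA1 by 1.5 and the co-chaperone BAG3 by 0.63. No gene passed in the lists of oxidative phosphorylation (21 genes), ATF4 and amino acid genes (22), WNT and Notch (25) or cytoskeleton (24). In lists of this size, as for the glycolysis and collagen lists above, 0 calls cannot be told from the 3.86% of all genes. None of these single calls passed without p65 replicate 1.

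The same genes were read in the ZHX2 knockdown, which shares no array with the p65 comparison. There limma with the same trend called 5875 of 22432 genes (26.2%) for the mean of both hairpins against scrambled, 1994 lower (8.89%) and 3881 higher (17.3%), from 6 arrays. ZHX2 itself had signals of 7.75 and 7.82 in the p65 table's controls and 7.60 and 7.79 in its p65 arrays (adjusted p = 0.802), and RELA rose by 0.44 in the ZHX2 knockdown (adjusted p = 8.74e-05). Of the 559 genes that fell with p65, 71 also fell with ZHX2 (12.7% of the p65 falls, 3.56% of the ZHX2 falls) and 328 rose (58.7% and 8.45% of the ZHX2 rises). Of the 307 that rose with p65, 91 also rose with ZHX2 (29.6% and 2.34%) and 100 fell (32.6% and 5.02%). These are counts beside each other, and no difference between the knockdowns was tested.

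Set side by side, CCL2 had -4.50 with p65 and -2.25 with ZHX2, VCAM1 -2.91 and -1.57, TNFAIP3 -1.51 and -0.98, CXCL8 -1.01 and -2.44, and NFKBIA -0.97 and -0.40, all called in both. CXCL5 had -2.37 and 0.02, and CD44 -1.14 and 0.84. All 29 replication genes and 25 of 28 mitosis genes were called higher in the ZHX2 knockdown, with medians of 0.58 and 0.35, against -1.23 and -1.64 with p65. Of 16 cholesterol genes 11 were called lower with ZHX2 (median -0.28) and 0 higher, the same sign as with p65. Of 22 p53 targets 10 were called lower and 3 higher (median -0.12), and of 40 interferon-stimulated genes 28 were called lower with ZHX2 (median -0.44) against 1 with p65. MMP13 had 2.55 with p65 and -3.02 with ZHX2, and KCNJ16 1.05 and -2.79. Both tables come from 786-O cells under puromycin, but the labels do not say how their control hairpins relate. The tables are also of different array platforms, so the sizes of the paired differences were not compared.

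**Figure D5:**
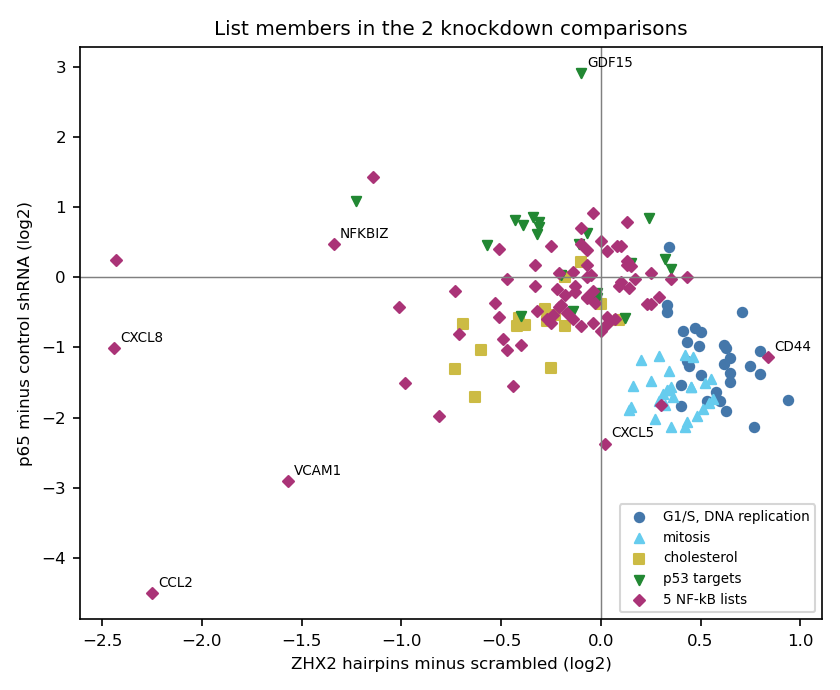
Log2 difference in the p65 comparison (vertical) against that in the ZHX2 comparison (horizontal) for members of the named lists, 1 point a gene; the comparisons come from separate tables with separate controls. Most cell-cycle genes lie at the lower right (list medians -1.23 and -1.64 against 0.58 and 0.35), while CCNE1 lies at the upper right and CCL2 and VCAM1 at the lower left.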

How the data were processed

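Total RNA from 786-O cells was hybridised to Affymetrix arrays, per the labels' protocols. The deposited values are log2 RMA signals, that is, background-adjusted, normalized and summarised by the authors per probe set, per the submitters' processing notes. Neither the RMA software nor its version is given in the sources used here. Array medians ran from 1.87 to 1.89. Replicates correlated at 0.985 (control) and 0.987 (p65) over the named genes, with 1 probe set each, and 2 arrays a group limit the precision.

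Probe sets were named from the platform annotations of both tables, with symbols updated through RefSeq (GRCh38.p14). Of 53617 probe sets, 24480 had 1 gene, 1842 had several and 27196 had none. The brightest probe set stood for each of the 1103 genes with more than 1. Group means were fitted with limma 3.58.1 in R 4.3.3 (eBayes with an intensity trend, two-sided, Benjamini-Hochberg over 22432 genes, adjusted p under 0.05). The fit was also run on simulated data whose spread followed the signal alone. Such data meet the assumption of the trend, so that run cannot vouch for the calls. Group errors are SD and the SE is moderated. The ZHX2 table was fitted alone. Its signals were never set against those of the p65 table.

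Genes named are RELA, the 15 largest falls and rises among non-overlapping, not dim, annotated calls, up to 4 called members per list, and all called and up to 3 bright uncalled members of the 5 NF-kB lists. Other members, such as CXCL1, are given as values beside them, chosen after they were seen. The members, the 57 lists and the tests were chosen with earlier results of these data known. Over all named genes same-numbered arrays did not deviate together (correlation 0.0096), and the arrays were fitted unpaired. A single correlation over all genes, many of them dim, cannot exclude a pairing, and the labels do not settle it. The median of the mitosis list was higher in replicate 2 of both groups. Alternatives were another variance prior, centring, quantile normalization, signal filters, probe set rules, a fold minimum, the replicate block and each array left out.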

Additional observations from a re-analysis of the deposited data

How the results depend on the processing

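The count of 866 called genes was 0 without the intensity trend and 0 with every probe set tested, 451 with a 2-fold minimum, 1434 with the replicate number as a block, and between 11 and 1046 with 1 array left out, lowest without p65 replicate 1. Robust moderation, median centring, quantile normalization, both signal filters, the mean of probe sets and a 1.5-fold minimum kept it between 807 and 1204. The cause of these moves was not tested, except that the 2-fold minimum removes calls by construction. Same-numbered arrays did not deviate together over all genes (correlation 0.0096), which does not settle whether they are paired. All 866 genes were among the 1434 of the block. The change of RELA stayed at -2.50 without the trend, with an adjusted p of 0.0733. The ZHX2 count of 5875 was 4102 without the trend. Of the 108 named called genes, 106 passed with robust moderation, 107 with median centring, 104 with quantile normalization, 102 with the mean of probe sets and 108 with the block, and none changed sign in any alternative. Of the named genes that missed the threshold, NFKB1 and ICAM1 passed with either signal filter (adjusted p 0.0385 and 0.0388 above the olfactory reference), with the block and without control replicate 2, where TGFB1 passed too. Of the 8951 genes below the olfactory reference 14 passed.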
